A study of Homo sapiens with 4 samples.

Results

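The DEAD box and DEAH box helicases are the largest family of enzymes that remodel RNA, and this account describes which of their transcripts were bound by YTHDF1, a cytoplasmic reader of N6-methyladenosine (m6A). Members were the protein-coding genes whose symbol starts with DDX or DHX followed by a digit. The choice left out 2 genes of that naming pattern. Of the 53 protein-coding genes of RefSeq that remain, 42 were listed in the authors' deposited table of YTHDF1 peaks, out of 7550 genes of all types in that table.

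The data come from SNU638, an established human gastric cancer cell line, in which RNA bound to a protein was pulled down with it and sequenced (RIP-seq). The series has 2 groups, the RNA recovered with YTHDF1 (IP-YTHDF1, 2 libraries) and the total RNA of the same kind of lysate (Input, 2 libraries). Cells of both groups overexpressed YTHDF1. They spent 24 h without serum and a further 24 h with IFN-γ at 10 ng/ml. According to the methods the protein was pulled down through a FLAG tag, so an overexpressed protein in 1 cell line was measured, and no library without IFN-γ or without overexpression entered the table. All values below therefore describe binding under IFN-γ and no change caused by it.

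Each row of the table is a window of 50 bp in which IP-YTHDF1 was set against Input, and it carries a signal value, a p-value and a q-value. In the paper, protein-coding peaks are described as the union of replicates, so a listed window may rest on only 1 IP-YTHDF1 library. No column belongs to a single library. Depth, the spread between replicates and the expression of a gene are therefore unknown here, no test over samples could be run, and every comparison below is a description of 1 table. The signal value is larger for a stronger window, but its scale is not stated, so it is used only to order and compare windows.

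These helicases bind RNA and ATP through a conserved core and are named after the amino acids of a core motif. DEAD box proteins open short RNA duplexes locally and clamp RNA in larger complexes, while DEAH box proteins move along a strand and drive the steps of the spliceosome and of ribosome assembly. Other members export mRNA, start translation on structured leaders or sense viral RNA, and a few of these are induced by interferon. The m6A mark is placed mostly at an adenosine within the letters GGAC and related sequences, and YTHDF proteins that bind it are known for acting on the translation and decay of the marked mRNA.

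Sequence could be read for only a few windows, those that reach into the stretches RefSeq (GRCh38.p14) gives around annotated gene starts, from 250 bases before to 50 bases after a start. Of the 144 helicase windows, 16 in 13 genes reached into such a stretch, and 11 windows had at least 25 of their bases in it. GGAC was found on the transcript strand in 3 of these 11. These 3 are shown first below, as stretches of 30 bases, because GGAC is the core in which m6A is mostly found. The windows of DDX19A and DHX57 lie 59 and 55 bp from the 5′ end of their own gene and were read from the start stretches of the neighbours DDX19A-DT and MORN2, and the window listed under DDX46 lies at a start of C5orf24. The other 3 are shown because the window covers an ATG behind an annotated start of its own gene, 21 bp from the 5′ end in DDX47, 4 bp in DDX54, and in DDX5 135 bp behind a start that is not the outermost, with the window 712 bp from the 5′ end. The stretches run 5′ to 3′ on the transcript strand, where capitals mark the GGAC or the ATG.
DDX19A, chr16:70346968-70346997, plus strand: agtgggtctcccttgtccgGGACtatggcc
DHX57, chr2:38875833-38875862, minus strand: ccaagtccagtttGGACctctgacccttgg
DDX46 (as listed), chr5:134845988-134846017, plus strand: gcctcttcgtactgcgtccggggcaGGACc
DDX5, chr17:64506105-64506134, minus strand: gcaaccattgacgccATGtcgggttattcg
DDX47, chr12:12813367-12813395, plus strand: gATGgcggcacccgaggaacacgattctc
DDX54, chr12:113185435-113185464, minus strand: gcgcgcggcccgaATGgcggccgacaaggg

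In the DDX19A window the GGAC was followed by T, which makes GGACT, the longer form of the motif. For comparison, 885 protein-coding windows of the same 50 bp lay wholly in a start stretch. A chromosome without helicase windows was left out of this count. Of the 885, 23.6% held GGAC on the transcript strand and 20.3% held it on the opposite strand, as GTCC. The corresponding shares were 5.54% and 4.86% for GGACT, which is counted within GGAC, and 28.8% and 25.6% for ATG. Only 3 helicase windows were covered in full, and 1 of them, in DHX57, held GGAC. These are matches of letters and not mapped m6A sites, and the bases of the other helicase windows were not analysed here.

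Most of the family carried YTHDF1 peaks. The 42 listed genes make up 79.2% of the 53, next to a background of 31.8% of all 20052 RefSeq protein-coding genes with coordinates. Unexpressed genes are part of that background, and expression was not accounted for, so the gap cannot be read as a preference for helicases. At a q-value of at most 0.001 the counts were 27 of 53 helicase genes (50.9%) against 21.2% of all coding genes. With a signal value of at least 2 they were 30 of 53 (56.6%) against 22%.

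The 11 genes with no listed window were DDX1, DDX4, DDX19B, DDX25, DDX39B, DDX43, DDX49, DDX50, DDX53, DDX56 and DHX36. All of the germ line members, DDX4, DDX43 and DDX53, were among them. DDX25, also known from the testis, was unlisted too. DHX genes were listed in 15 of 16 cases, all but DHX36, and DDX genes in 27 of 37. Beside these counts stand the 79.2% of the whole family and the 31.8% of all coding genes.

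In all, the 42 genes held 144 windows on 18 chromosomes. Joining windows that touch left 106 regions, 77 of them a single window. The number of windows per gene had a median of 3, the same as over all 6679 listed coding genes. A single window was listed for 11 helicase genes (26.2%, against 29% of coding genes) and 9 windows, the most listed for any gene, for 4 of them (9.52%, against 12.8%). In these counts the helicases were thus close to the other listed genes.

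Strength did not set the family apart either. The 144 windows had a median signal value of 1.88 and ran from 0.86 to 2.95, and the 24754 windows of all coding genes had a median of 1.83. By the strongest window of each gene, the helicases had a median of 2.16 and a range from 1.32 to 2.95, against a median of 2.23 over coding genes. The strongest window was above the coding median in 20 of 42 genes. A q-value of at most 0.001 was reached by 68 windows (47.2%), against 43.6% of coding windows. The strongest listed helicase window, with 2.95 in DHX32, was above 96.7% of coding windows, whose highest signal value was 6.76.

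**Figure D1:**
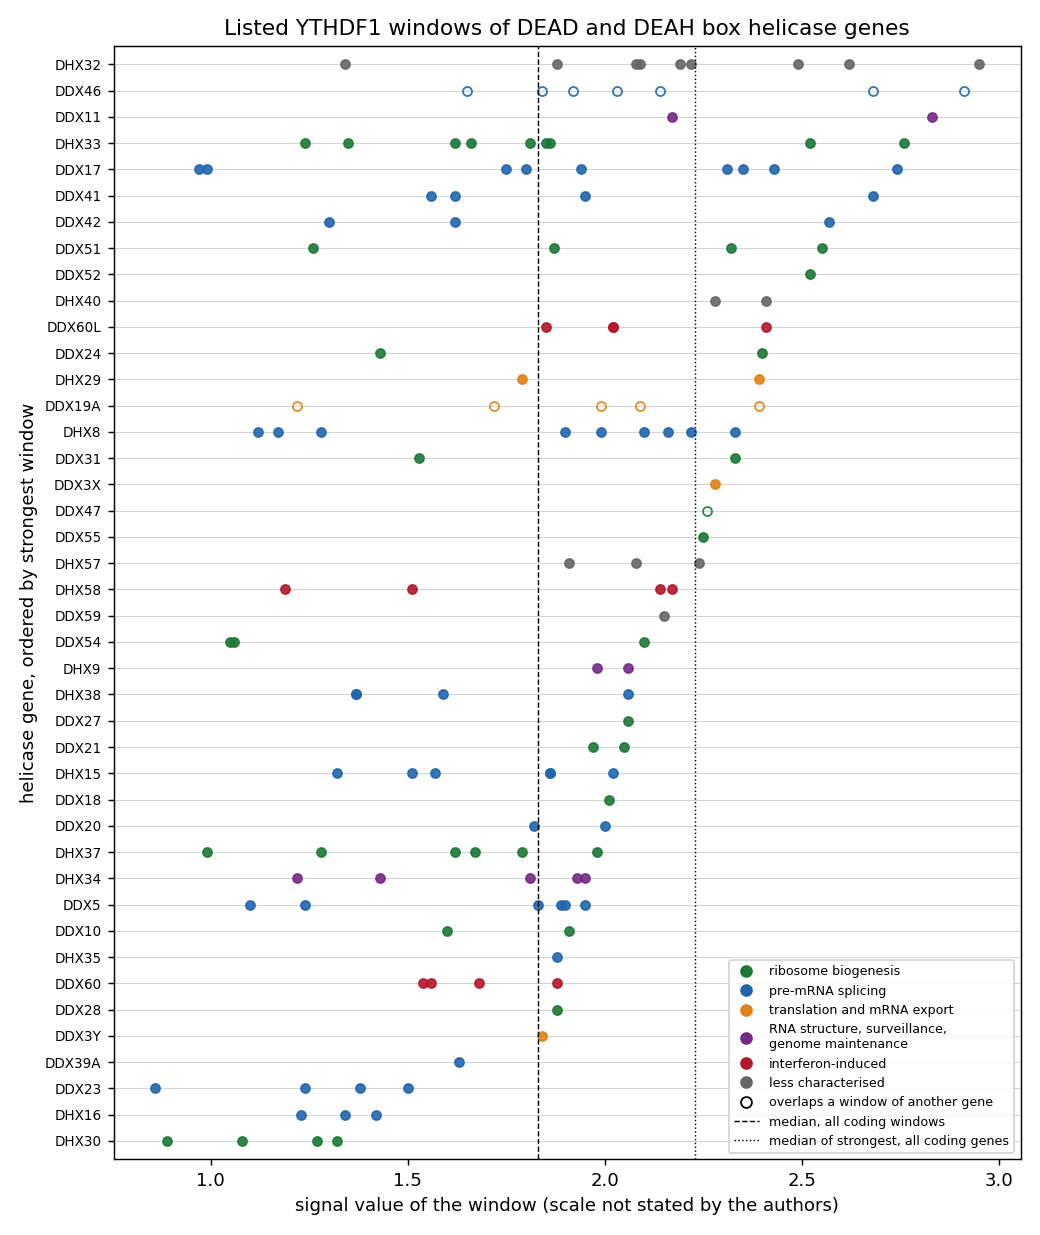
Signal value (horizontal axis, scale not stated by the authors) of each of the 144 listed windows (points) of the 42 helicase genes, ordered by their strongest window and coloured by role. Open points overlap a window listed for another gene, and the lines mark the medians of all coding windows (1.83) and of the strongest window per coding gene (2.23). DHX32 reaches 2.95 at the top and DHX30 ends at 1.32 at the bottom.

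The strongest windows belonged to 5 genes with quite different functions. DHX32 (ENSG00000089876), a DEAH box protein whose role is less well described, led with a signal value of 2.95, above the strongest window of 90.2% of coding genes. Its 9 windows lay on the minus strand of chromosome 10. A cluster of 6 held signal values of 1.88, 2.19, 2.62, 2.95, 2.08 and 1.34 in the direction of transcription, 15498 to 15848 bp from the 5′ end of the gene and 305 to 655 bp behind another annotated start. Its strongest window lay at chr10:125880738-125880787. The seventh, 10898 bp from that end, had 2.49. The last 2, at 148 and 198 bp, had 2.09 and 2.22. So 7 of the 9 DHX32 windows had a signal value of at least 2, the most of any helicase gene.

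DDX11 (ENSG00000013573), a helicase of sister chromatid cohesion, had 2 adjacent windows with signal values of 2.83 and 2.17 and q-values of 1.81e-12 and 0.000353. It has close relatives among pseudogenes (DDX12P and the DDX11L group), and how reads that match several places were counted is not given in the sources used here, so its values are uncertain. DHX33 (ENSG00000005100), which acts in ribosome production and in translation, had 9 windows, with signal values of 1.86, 2.52, 1.62, 1.66, 1.35, 1.85, 1.81, 1.24 and 2.76 in the direction of transcription. Its strongest window lay 18715 bp from the 5′ end, at 66.8% of the gene's length. The second strongest lay 5315 bp from that end.

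DDX17 and DDX5 are close paralogs that act in splicing, transcription and microRNA processing. DDX17 (ENSG00000100201) had 9 windows, of which the block of 3 next to its 5′ end carried signal values of 2.31, 2.35 and 2.43 and the lowest q-values of the family, from 1.78e-14 to 2.96e-14. A further window closer to that end had 1.75. Its strongest window, 5123 bp from the 5′ end, had 2.74 (q-value 3.24e-11), beside a window with 1.94. Its weakest, with 0.97 and 0.99, lay at 50.7% and 97.7% of the gene's length, and the ninth, at 53.5%, had 1.80. DDX5 had 6 windows, with signal values of 1.10, 1.24 and 1.89 in a block 35 to 135 bp behind an annotated start, 1.90 and 1.83 in a second block and 1.95 in a window by itself. Both genes thus combined a block at a gene start with windows further in, but no DDX5 window reached 2 and 4 of the 9 DDX17 windows did.

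DDX46 (ENSG00000145833), a splicing factor of the U2 particle, stood second by signal value, but the position of its windows goes against the label. RefSeq places DDX46 at positions 134758779 to 134831121 of chromosome 5. All 7 windows listed under DDX46 lay beyond that interval, from 14851 to 23951 bp past its 3′ end, inside the interval of the next gene on the same strand, C5orf24 (134833602 to 134859735). Each of them overlapped a window listed under C5orf24 itself. It was the only helicase gene with a window outside its RefSeq interval. Over all coding genes with an interval, 2.69% of windows lay outside.

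In order of position the DDX46 windows had signal values of 1.84, 2.03, 1.65, 2.14, 2.91, 1.92 and 2.68. The same stretch had different values under the 2 names. At 134854922 to 134854971 the window listed under DDX46 had a signal value of 2.91, and the C5orf24 window shifted by 9 bp had 2.16. The window at 134855072 had 2.68 under DDX46 and the overlapping one had 1.63 under C5orf24. In the other cluster, which begins near an annotated start of C5orf24, the first windows had 1.84 under DDX46 and 1.97 under C5orf24, and the last had 2.14 and 2.10. Windows 9 bp apart thus had unequal signal values under the 2 names, and the reason was not tested. The count of windows in DDX46 is given here as listed, and no window lay in the part of chromosome 5 that RefSeq assigns to that gene.

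**Figure D2:**
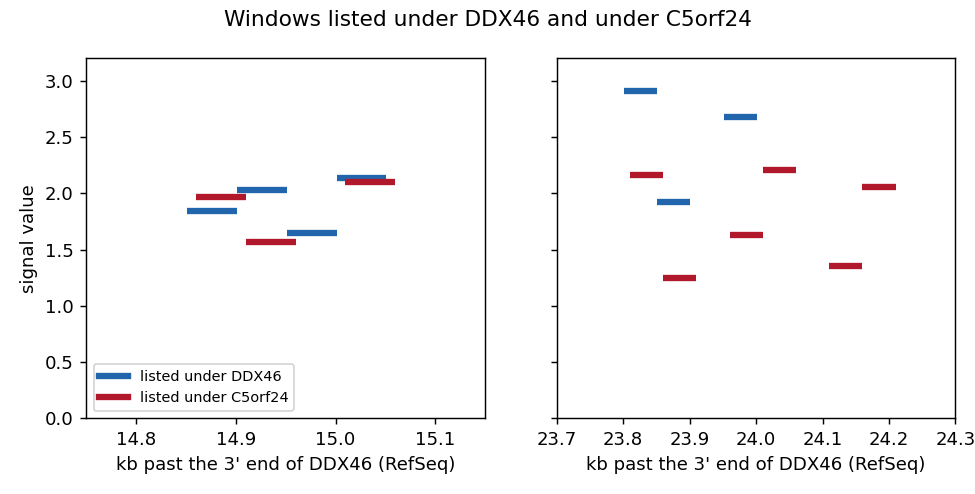
Signal value (vertical axis) of the windows listed under DDX46 (blue) and under C5orf24 (red) against their distance in kb past the 3′ end of DDX46 in RefSeq, with each bar as wide as its 50 bp window and the empty stretch between the 2 clusters left out. All 7 DDX46 windows lie 14851 to 23951 bp past that end, each overlapping a C5orf24 window, and in the right panel the DDX46 bars at 2.91 and 2.68 stand above the C5orf24 bars they overlap.

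Shared windows touched 2 further genes. DDX19A, which releases mRNA from its export factors at the nuclear pore, had 5 windows with signal values of 2.39, 1.72, 2.09, 1.22 and 1.99, and each overlapped a window of AC012184.2, a gene model on the same strand. The highest AC012184.2 value in this stretch was 2.62. DDX47, a factor of ribosomal RNA processing, had a single window with 2.26, which overlapped an APOLD1 window with 1.84. Both windows lay inside the RefSeq interval of DDX47 and beyond that of APOLD1. Shared windows made up 13 of 144 helicase windows (9.03%) in 3 genes, against 10% of all coding windows.

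Ribosome biogenesis was the largest role by number of genes. DEAD and DEAH box proteins separate small nucleolar RNAs from the precursor of ribosomal RNA and refold it. Of 18 members 15 had a window, next to 79.2% of the family and 31.8% of all coding genes, with expression not accounted for. They held 40 windows in all, with a median of 2 per gene and a median of the strongest signal value of 2.10. DDX49, DDX50 and DDX56 had none. In 10 of the 15 genes a window lay within 500 bp of the 5′ end of the gene, next to 53.7% of all helicase genes and 43.1% of coding genes with a window in their interval.

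The strongest in this group after DHX33 were DDX51 and DDX52. DDX51, needed for the large ribosomal subunit, had 4 windows with signal values of 2.55, 1.26, 1.87 and 2.32, all within 7.11% of the gene's length from its 5′ end. DDX52, which acts on the small subunit, had 1 window with 2.52 at 1207 bp from that end. DDX24 followed with 2.40 and 1.43, and DDX31 with 2.33 and 1.53.

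Several members had their windows at the very start of the gene. DDX18 had 1 window with a signal value of 2.01, 51 bp from the 5′ end, and DDX55 had 1 with 2.25 at 79 bp. In DDX54 a window 4 bp from the end had 2.10, while its other windows had 1.05 and 1.06. DDX21, which links ribosome production to transcription, had 1.97 at 51 bp and 2.05 at 10951 bp. DDX10 had 1.91 at 151 bp and 1.60 at 58201 bp, and DDX28, a factor of the mitochondrial ribosome, had 1.88 at 208 bp.

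DHX30, DHX37 and DDX27 completed the group. DHX30, which also serves the mitochondrial ribosome, was the weakest of all 42 genes, with 4 windows of 1.32, 1.27, 0.89 and 1.08, none of them in the first 20% of the gene. The last lay at 99.6% of its length. DHX37, of the small subunit, had 6 windows from 0.99 to 1.98, and DDX27 had 1 with 2.06. DHX30 and DDX28 thus differed in both strength and position although both serve the mitochondrial ribosome.

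The splicing helicases held the most windows. They remodel the small nuclear RNAs and the intron at each step of the splicing cycle. Of 14 members 13 had windows, all but DDX39B, next to 79.2% of the family and 31.8% of all coding genes. They held 59 windows in all, with a median of 4 per gene and a median strongest signal value of 2.02. Without DDX46, whose windows lie in another gene, 52 of the 59 are left. A window within 500 bp of the 5′ end was found in 4 of them (DDX17, DDX20, DDX41 and DHX15), against the same 43.1% of coding genes, and DDX46 has no window in its interval that could count. The first DDX42 window lay at 504 bp.

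The splicing genes ran from some of the stronger to some of the weakest windows of the family. DDX41, also a sensor of DNA, had 2.68 at 84 bp from its 5′ end, followed by 1.56, 1.95 and 1.62 in the direction of transcription. DDX42 had 2.57, 1.62 and 1.30. DHX8, which releases the spliced mRNA, had 9 windows from 1.12 to 2.33, with 7 of them in a stretch from 8241 to 9541 bp behind the 5′ end. DHX15, which takes the spliceosome apart, had 6 windows in 2 clusters, 4 of them from 1.57 to 2.02 at 7913 to 8113 bp from the 5′ end and 1.51 and 1.32 at 113 and 63 bp.

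At the lower end were the helicases that activate the spliceosome. DDX23, which frees the 5′ splice site, had 1.5, 1.24, 1.38 and 0.86, and DHX16, of the first catalytic step, had 1.23, 1.34 and 1.42. Their strongest windows exceeded those of 4.07% and 2.89% of coding genes. DHX38, of the second step, had 1.59, 1.37, 1.37 and 2.06. DDX20, of the complex that assembles small nuclear ribonucleoproteins, had 1.82 and 2.00, DHX35 had 1 window with 1.88, and DDX39A, a splicing and export factor, had 1 with 1.63.

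Translation and export had 4 listed genes of 6, next to 79.2% of the family and 31.8% of all coding genes, with 9 windows in all. The number of windows tested in these genes was 13 to 40, and the median share listed was 9.73%, next to 7.85% over all 42 helicase genes. DDX3X, which helps the ribosome through structured leaders, had 1 window with 2.28 and a q-value of 0.000233, 10977 bp from the 5′ end. Its paralog DDX3Y had 1 with 1.84 and a q-value of 0.038, and the sharing of reads between these similar sequences is not described. DHX29, which binds the small ribosomal subunit, had 2.39 and 1.79 at 39 and 89 bp from the 5′ end. DDX19A, described above, was the fourth.

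Among the helicases of structured RNA, surveillance and genome maintenance, 3 of 5 had windows, next to 79.2% of the family and 31.8% of all coding genes. DHX9, which unwinds long duplexes and RNA-DNA hybrids, had 2.06 at 51 bp and 1.98 at 3251 bp from the 5′ end. DHX34, a factor of nonsense-mediated decay, had 5 windows of 1.95, 1.81, 1.43, 1.93 and 1.22. DDX11 is described above. DHX36, which opens G-quadruplexes and has been grouped with DHX9 as a nucleic acid sensor, had none.

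All 3 interferon-induced members were listed, next to 79.2% of the family and 31.8% of all coding genes, and each had exactly 4 windows. DHX58, the receptor also called LGP2, had signal values of 1.51, 2.14, 1.19 and 2.17 in order of position, of which the window with 2.14 had the lowest q-value of the group (4.06e-06). DDX60, which aids viral RNA sensing, had 1.54, 1.56, 1.68 and 1.88, with q-values from 0.0188 to 0.0364. Its neighbour and paralog DDX60L had 2.02, 1.85, 2.02 and 2.41. Every DDX60L value except 1.85 was above the highest of DDX60. In both genes the strongest window was the one next to an annotated start, 8 bp behind it in DDX60 and 7 bp in DDX60L.

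The strongest windows of the interferon-induced genes had a median of 2.17, close to the 2.16 of all 42 genes. They were measured under IFN-γ only.

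The 4 remaining genes, of less described function, had a median strongest signal value of 2.33. DHX32 is described above. DHX40 had 2.41 and 2.28 at 49 and 99 bp from the 5′ end, with q-values of 3.99e-12 and 1.64e-08. DHX57 had 2.24, 2.08 and 1.91, and DDX59 had 1 window with 2.15.

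Of 7 chosen pairs of related helicases, 4 were listed on 1 side only. Of all 53 family genes 79.2% were listed, and the share of one-sided pairs among other genes was not computed. DDX19A had 5 windows and its neighbour DDX19B none under its own name. A window listed under AC012184.2 (signal value 1.67, q-value 0.0447) did lie inside the RefSeq interval of DDX19B. DDX39A had 1 window and DDX39B none, and DDX21 had 2 and its neighbour DDX50 none. DHX9 had 2 and DHX36 none. DDX5 and DDX17, DDX60 and DDX60L, and DDX3X and DDX3Y were listed on both sides. Whether the unlisted genes of these pairs were unbound or too low in the libraries to be tested cannot be told apart in this table.

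Along the genes, the windows lay towards the 5′ side. RefSeq gives 1 interval per gene, from the first to the last annotated base with introns included, and 137 windows of 41 genes lay inside the interval of their gene. The first 20% of the interval held 80 of them (58.4%), against 41.1% of all 22543 coding windows inside an interval. The last 20% held 8 (5.84%), against 19.6%. The median position was at 15.6% of the length for helicase windows and at 33.8% for coding windows.

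The 5′ position was not limited to the genes with 9 windows. Without them, 63.4% of helicase windows lay in the first 20%, against 41.9% of coding windows. With each gene counted equally the shares were 61.8% and 42.4%. Gene length was similar, with a median of 29103 bp for helicases and 31738 bp for coding genes. The windows of 1 gene are not independent, and neither the difference nor its relation to exon structure was tested.

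The gap was smaller for windows right at the gene start. Within 500 bp of the 5′ end lay 36 windows (26.3%), against 24% of coding windows, and they occurred in 22 of 41 genes (53.7%), against 43.1% of coding genes. Counting the nearest of all annotated starts instead, the shares of windows were 32.1% and 29.5%. Many genes also had windows beyond 500 bp from the 5′ end but within the first 20% of the gene. Examples are 7 windows in DHX8, 4 in DHX15 and in DDX60 and 3 in DDX5 and in DHX38. Those of DDX5, however, lay 35 to 135 bp behind another annotated start, and the strongest of DDX60 lay 8 bp behind one.

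Windows near the start were also somewhat stronger. Their median signal value was 2.005 in helicases, against 1.84 for those further in, and 1.99 against 1.78 in all coding genes. In this difference of medians the helicases resembled the coding genes as a whole. In 14 helicase genes the strongest window was within 500 bp of the 5′ end, a count that was not made for all coding genes.

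**Figure D3:**
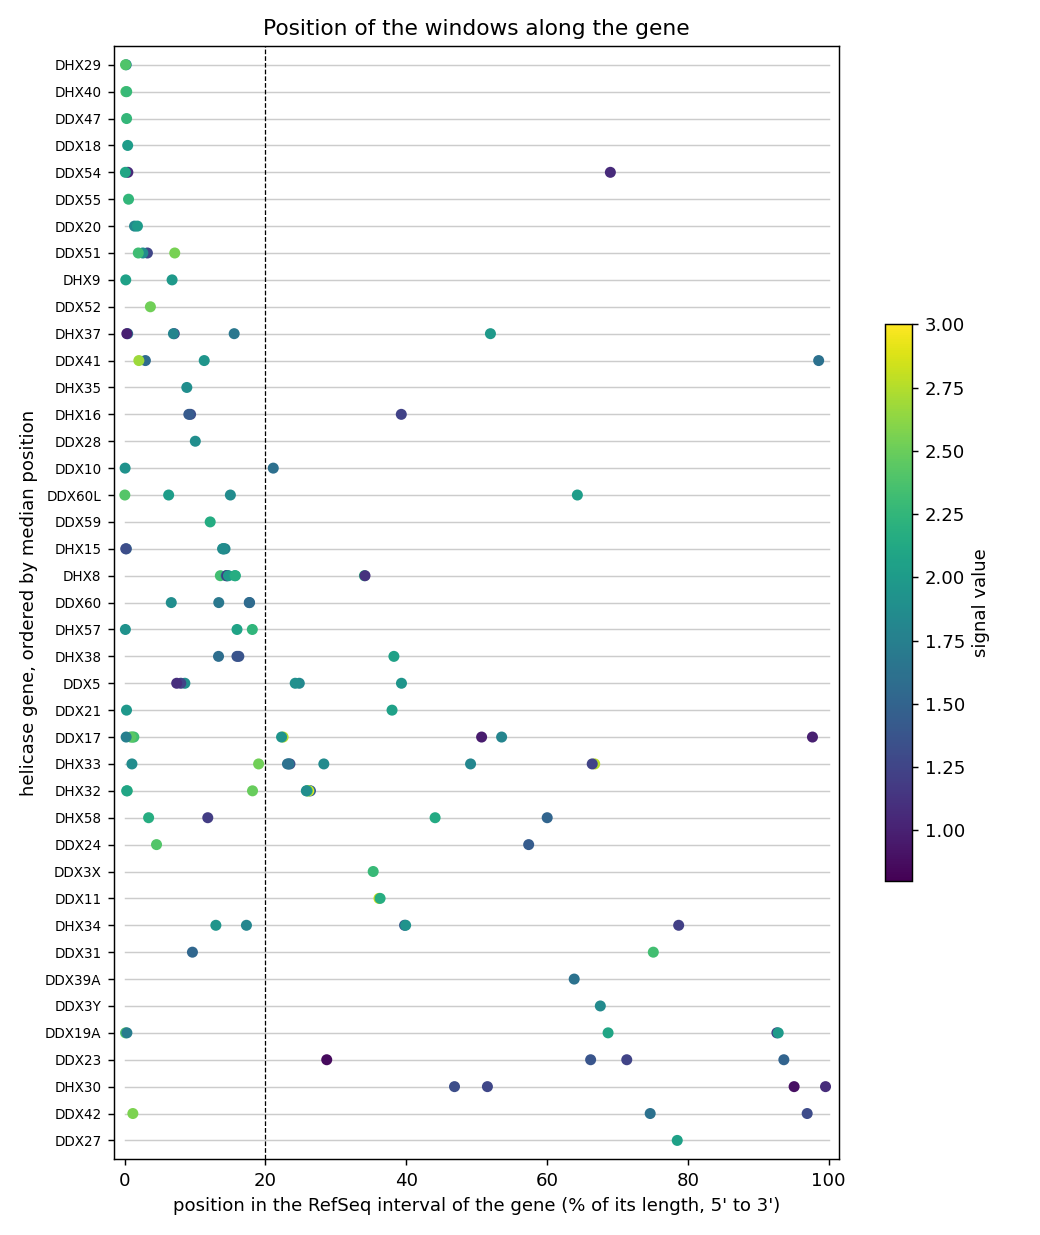
Position of the 137 windows inside the RefSeq interval of their gene (horizontal axis, % of gene length from the 5′ end), 1 line per helicase gene, ordered by median position and coloured by signal value. The dashed line marks 20% of the length, and 80 windows lie to its left, while DHX30, DDX23 and DDX27 are among the genes wholly to its right.

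**Figure D4:**
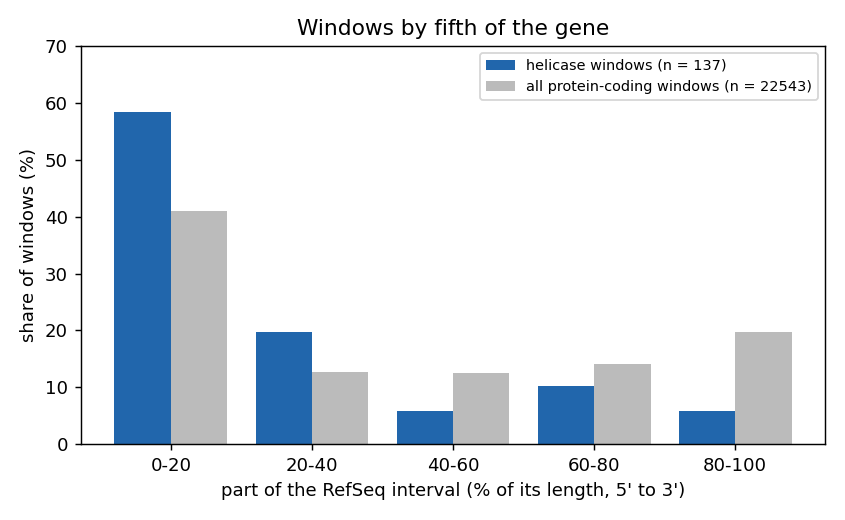
Share of windows (vertical axis, %) in each 20% step of the RefSeq interval from 5′ to 3′, for helicase windows (blue) and all coding windows (grey). The helicase bar is higher in the first step (58.4% against 41.1%) and lower in the last (5.84% against 19.6%).

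Listed windows were a small part of those tested. Within a gene, the q-values follow from the p-values by the Benjamini-Hochberg procedure, so their quotient gives the number of windows tested. It had a median of 31 in the 42 helicase genes, from 8 in DDX52 to 88 in DHX8, and of 36 in coding genes. Of the 1552 windows tested in helicases 9.28% were listed, against 8.46% in coding genes. Genes with more tested windows had more listed ones, with a Spearman rho of 0.69 over the 42 helicase genes and of 0.59 over 6653 coding genes, where the number tested also sets how many can be listed. The strongest signal value hardly followed the number tested in helicases (rho 0.10).

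A few genes had many of their tested windows listed. DDX46 had 7 of 24 (29.2%), all in the C5orf24 stretch, DHX15 had 6 of 26 (23.1%) and DHX32 had 9 of 41 (22.0%). At the other end DDX28 had 1 of 36 (2.78%), and DDX11, DDX39A and DDX3X had 3.70% each. DDX11 thus combined a high signal value with a low share of listed windows.

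The genes with 9 listed windows may be incomplete. The quotients also give the place of each listed window in the order of p-values. In DHX32 the listed windows took places 3 to 11, so by this count 2 windows with lower p-values than any listed one are missing from the table. In DHX33 and in DHX8 the last listed window had place 10, so 1 window each is missing. In DDX17 the last had place 9, and no missing window was found. The signal value of 2.95 for DHX32 is therefore the highest among its listed windows and may not be its highest.

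**Figure D5:**
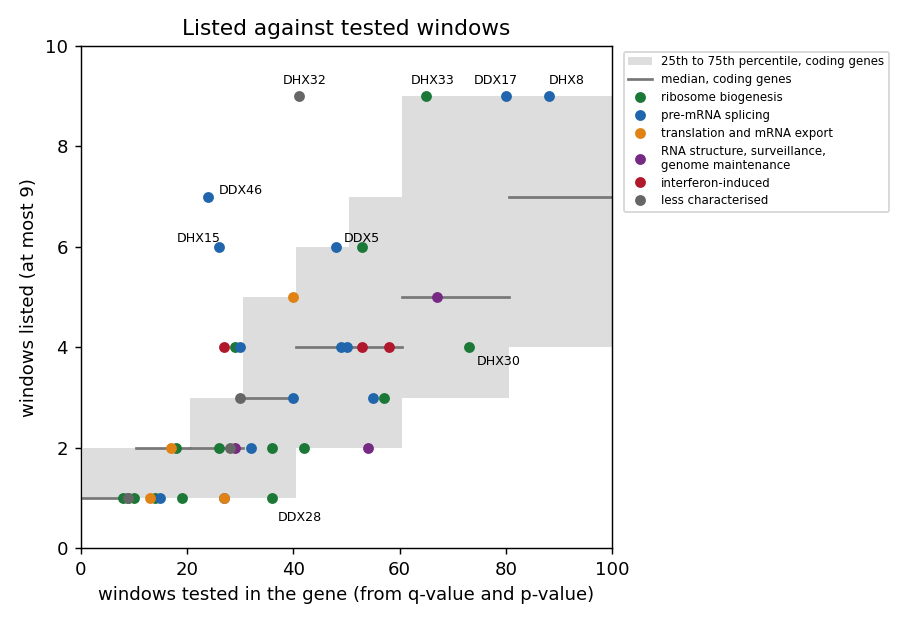
Windows listed (vertical axis, at most 9) against windows tested (horizontal axis) for the 42 helicase genes, coloured by role, over the 25th to 75th percentile (grey band) and median (grey line) of all coding genes in the same range of tested windows. DDX46 (7 of 24), DHX15 (6 of 26) and DHX32 (9 of 41) lie above the band, and DHX30 (4 of 73) lies within it.

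Helicases with other names gave a similar picture. Of 22 such genes 15 had a window (68.2%), next to the same 31.8% of all RefSeq coding genes, with expression again not accounted for. They held 65 windows, with a median strongest signal value of 2.20, against 2.23 over coding genes. UPF1, the helicase of nonsense-mediated decay, had the strongest, with 8 windows up to 3.38, above every DEAD or DEAH box gene described here. IGHMBP2 reached 2.78 and HELQ 2.47. YTHDC2, a DEAH box helicase that itself carries a YTH domain for m6A, had 4 windows with 1.72, 1.92, 2.40 and 2.40.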

How the data were processed

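RIP-seq libraries of IP-YTHDF1 (2 replicates) and Input (2 replicates) were analysed from the authors' deposited table of annotated peaks. The submitters' processing notes name STAR 2.7.3a and GRCh38; the peak caller is not given in the sources used here. The signal value and the rank are used as a score given by the authors, and the p-value and q-value per window are also the authors' deposited values (largest q-value 0.05). The table has 0 columns of values per library, so the planned test of IP-YTHDF1 against Input was not run. Of 26820 rows, 1 repeated another and was dropped. Starts were converted to count from 1.

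Members were found by symbol. The members, the role lists and the list of other helicases were chosen with earlier results of these data known. Every listed member is named. Values of each window are given for the 5 strongest members and for up to 3 of each role with the largest signal value. They are also given for pairs of related members and for the interferon-induced members. Window values of further members, and DDX3X with DDX3Y as a pair, were added after they were seen. Other helicases are given by examples from the 4 largest signal values, of which 1 is not reported here, and YTHDC2. Gene intervals and start stretches came from RefSeq (GRCh38.p14): 97.3% of 23165 coding windows with an interval of their gene lay inside it, and 38 of the 42 genes had a start stretch. The number of windows tested was computed from q-value and p-value, using p-values above 1e-14, and could not be had for 47 genes of the table. On simulated data it was recovered within 1% in 100% of 1031 genes with 9 or fewer windows and in 85.7% of 467 genes shortened to 9. The scripts ran in Python 3.11.15 with matplotlib 3.10.9 for the plots and with SciPy 1.17.1, NumPy 2.4.6 and pandas 2.3.3 for the values.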

Additional observations from a re-analysis of the deposited data

How the results depend on the processing

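Stricter limits lowered the counts, which follows from the limits themselves. With the q-value limited to 0.001, 27 helicase genes and 68 windows were left, with a median signal value of 2.14 and a median strongest value of 2.39. Under a Bonferroni limit over the 315399 windows tested in all listed genes these values were 16 genes, 37 windows, 2.33 and 2.48. The share of all coding genes at that limit was not computed, so these counts have no background beside them. Keeping signal values of 2 or more, 54 windows in 30 genes were left, with a median of 2.255. Of all coding windows, 64.2% had a signal value below 2. No gene kept 9 windows (0 under each of these 3 limits, against 4). The other 18 of 31 alternatives stayed within 1.5 times the count or within the 95% interval of the median or share. Those intervals treat windows or genes as independent and do not measure the spread between replicates. Leaving out windows shared with another gene (131 windows in 39 genes) was among these 18. So were, chosen after the data were seen, keeping windows inside the RefSeq interval (137 windows in 41 genes) and the alternatives for position. No paired analysis was possible because no column carries a replicate number, and leaving out replicates was not run for the same reason. The GGAC share with wider windows and the shares by transcript region were not run, since sequence and exon annotation of the windows were not used here.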
